A study of Homo sapiens with 10 samples.

Results

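MDM2, MDM4, PPM1D, CCNG1, RCHY1, RFWD2, USP7 and TRIM24 are 8 genes grouped as negative regulators of the tumour suppressor p53, although USP7 also stabilises p53. They were taken by symbol from the 26040 genes measured. The rule names no measured value, but the set was chosen with earlier results of these data known. All 8 passed the filter on low values, which required 10 scaled fragments or more in 3 or more of the 10 libraries. RFWD2 is the older name of COP1 and is kept here as the table gives it.

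The cells were U2OS, a human osteosarcoma line with working p53, and the study asked how loss of ARVCF, a cadherin-binding relative of p120 catenin, alters transcription driven by p53. Every line had been infected with a lentivirus for an shRNA and selected with puromycin at 1 µg/ml, so the controls share the virus and the drug selection. The first group comprised 3 libraries of shARVCF cells given 10 µM nutlin-3a for 24 h, 1 library for each of 3 shRNAs against ARVCF. The second comprised 3 libraries of cells with a negative control shRNA given the same treatment. The third comprised the same 3 shARVCF lines untreated. The fourth was a single library of untreated control cells, which has no replicate. The labels speak of single clones, the control libraries all come from 1 line, and nothing states that the repeated control libraries were separate cultures. The fit used 1 spread shared by all groups, to which the lone untreated control library adds nothing. P-values for the control line therefore rest on the spread between shARVCF lines and on that between treated control libraries, which may be technical. The effect of ARVCF loss and the difference between clones cannot be told apart. Libraries 2 and 3 of the nutlin-3a-treated control line carry later library numbers than the other 8 libraries. Some of the results that rest on them are also given from the first library series alone.

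The p53 protein switches on genes that end its own activity. MDM2 is a ubiquitin ligase that binds p53, blocks its transactivation domain and sends it to the proteasome, and the MDM2 gene is itself a p53 target, which closes a negative feedback loop. Nutlin-3a is a small molecule that sits in the p53 pocket of MDM2, so p53 accumulates while MDM2 mRNA is made. MDM4, also called MDMX, is a relative of MDM2 that inhibits p53 but binds nutlin-3a poorly. PPM1D encodes the phosphatase WIP1, which removes activating phosphates from p53 and its kinases, and CCNG1 encodes cyclin G1, which recruits a phosphatase to MDM2. RCHY1 (PIRH2), RFWD2 and TRIM24 are further ubiquitin ligases of p53, and USP7 (HAUSP) is a deubiquitinase that stabilises MDM2, MDM4 and p53.

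Promoter sequences are shown first for MDM2, PPM1D and CCNG1, the members that rose with nutlin-3a in the shARVCF lines. RefSeq promoter windows (GRCh38.p14, 250 bases before to 50 after an annotated start) matched 7 of the members by symbol, RFWD2 as COP1. They were searched for a p53 full site, defined by name as a pair of adjacent p53 half-sites with no spacer, with at most 2 mismatches in 20 bases and the central C and G of each half-site kept. The motif equals its own reverse complement, so 1 search covers both strands. Such a site was found in 100 of all 35116 windows, or 0.285%. Among the members it occurred in both windows of the downstream start of MDM2, which overlap, at chr12:68808923-68808942, and in neither window of the upstream start. The windows searched for MDM4, PPM1D, CCNG1, RCHY1, RFWD2 and USP7 held no such match, which says only that these letters are not in those windows. All 4 sequences below lie on the + strand, and capitals mark the match to the p53 full site.
MDM2, downstream start, chr12:68808774-68809073: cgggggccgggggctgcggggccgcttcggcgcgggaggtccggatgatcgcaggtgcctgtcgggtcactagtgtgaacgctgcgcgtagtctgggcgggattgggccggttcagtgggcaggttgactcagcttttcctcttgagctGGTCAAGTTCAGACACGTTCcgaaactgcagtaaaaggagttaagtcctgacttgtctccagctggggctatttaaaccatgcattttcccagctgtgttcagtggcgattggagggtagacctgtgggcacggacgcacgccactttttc
MDM2, upstream start, chr12:68807922-68808221: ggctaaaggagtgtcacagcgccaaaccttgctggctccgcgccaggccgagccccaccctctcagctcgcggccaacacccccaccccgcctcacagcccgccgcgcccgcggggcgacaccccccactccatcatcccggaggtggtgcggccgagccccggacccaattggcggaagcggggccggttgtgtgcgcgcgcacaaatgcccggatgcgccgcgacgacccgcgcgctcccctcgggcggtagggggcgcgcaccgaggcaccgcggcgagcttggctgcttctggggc
PPM1D, chr17:60599943-60600242: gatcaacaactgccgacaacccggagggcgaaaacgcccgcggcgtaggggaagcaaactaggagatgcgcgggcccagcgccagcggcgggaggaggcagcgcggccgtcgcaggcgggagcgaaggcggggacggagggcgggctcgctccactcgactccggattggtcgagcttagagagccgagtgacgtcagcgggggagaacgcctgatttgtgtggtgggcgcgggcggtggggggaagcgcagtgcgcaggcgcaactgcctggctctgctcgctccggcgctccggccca
CCNG1, chr5:163437321-163437620: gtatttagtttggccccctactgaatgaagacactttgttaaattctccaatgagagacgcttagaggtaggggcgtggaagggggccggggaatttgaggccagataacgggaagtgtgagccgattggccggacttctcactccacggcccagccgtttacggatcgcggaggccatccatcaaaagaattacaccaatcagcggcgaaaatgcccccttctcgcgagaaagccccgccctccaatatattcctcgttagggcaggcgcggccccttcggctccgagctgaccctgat

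Values are the authors' scaled fragments per gene, with library totals of 17821751 to 19903778 after scaling, which do not show the depth before it. ARVCF itself averaged 1235 ± 48.3 in shARVCF cells against 2625 ± 280.0 in control cells under nutlin-3a (SD, n = 3 each), and 324 ± 28.3 (n = 3) in untreated shARVCF cells against 618 in the untreated control library. In the fit across all genes ARVCF was lower in shARVCF cells under nutlin-3a (log2 fold change −1.08, SE 0.10, adjusted p = 3.14e-06), and without drug the difference was −0.93 (SE 0.15, adjusted p = 0.0957). ARVCF itself rose with nutlin-3a, by 1.93 in the shARVCF lines and 2.08 in the control line on the log2 scale. CDKN1A, which encodes the cell-cycle inhibitor p21, rose in both line types, by 3.11 in the shARVCF lines and 2.99 in the control line on the log2 scale. Of the mesenchymal and osteoblast markers, VIM, COL1A1 and SPARC had values of at least 27686 in every library. The osteoblast genes RUNX2 and ALPL ranged from 328 to 1444 and from 123 to 1502. COL1A2 was at or under 15.5, and the osteoblast genes SP7, IBSP and BGLAP were at or under 4.77, in all 10. Among 7 markers of epithelial, blood and endothelial cells the summed value was 255 to 514 in nutlin-3a-treated shARVCF cells, 314 to 474 in treated control cells, 250 to 328 in untreated shARVCF cells and 326 in the untreated control library.

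Transcript length moved with the nutlin-3a effect in the control line. When all genes were split into 5 classes by the spliced length of their longest transcript, the median log2 fold changes in the control line were 0.60, 0.27, −0.09, −0.46 and −0.83 from the shortest class to the longest. In the shARVCF lines the same medians lay between −0.03 and 0.03. MDM2 (12633 bases), MDM4 (10073) and TRIM24 (8410) belong to the longest class, USP7 (5412), PPM1D (4778) and RCHY1 (4686) to the class below it, RFWD2 (3033) to the middle class and CCNG1 (2458) to the second shortest. The class medians therefore stand beside the members' values in the control line. The part of transcript length in those results was not tested, other than by fits from which each library's trend with length and GC had been removed.

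**Figure D1:**
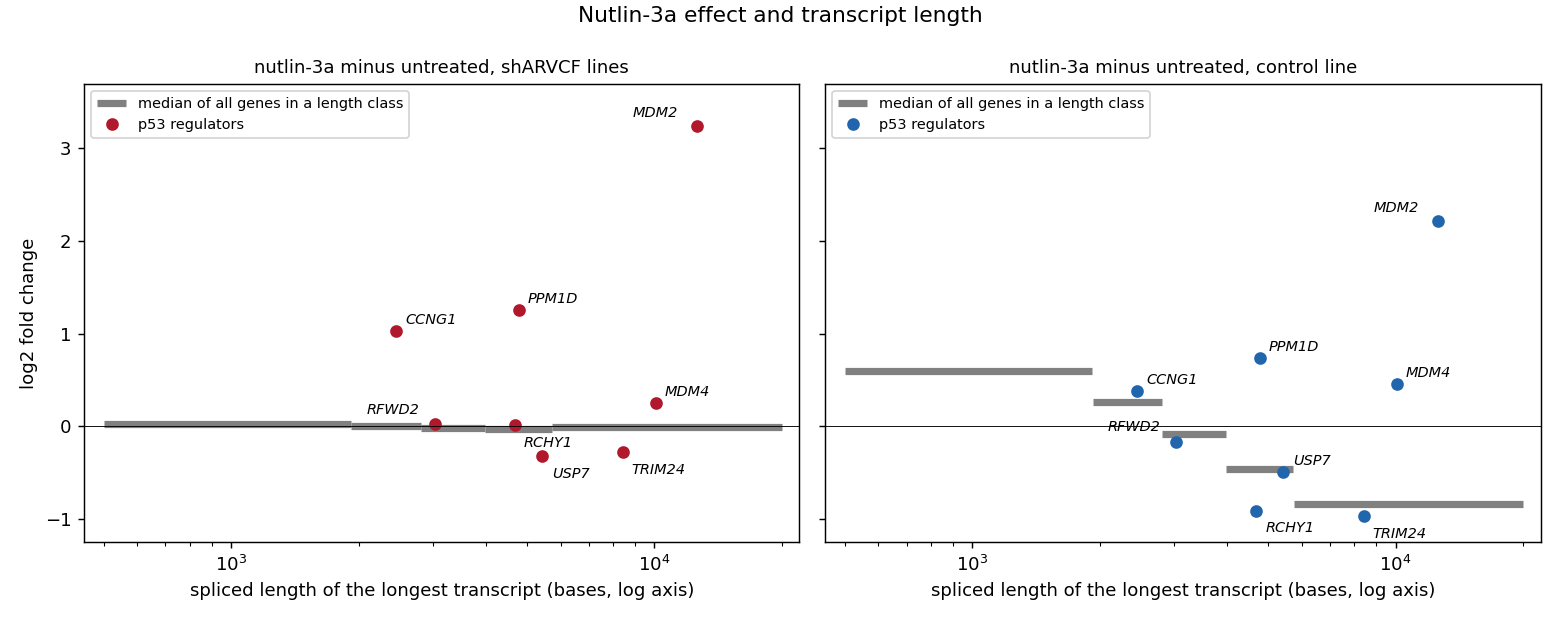
Log2 fold change of nutlin-3a-treated over untreated cells against spliced transcript length in bases (log axis), for the shARVCF lines on the left and the control line on the right. Grey bars are medians of all genes in 5 length classes, and points are the p53 regulators. The grey bars run from 0.60 to −0.83 in the control line and stay between −0.03 and 0.03 in the shARVCF lines.

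MDM2, PPM1D and CCNG1 rose and USP7 fell with nutlin-3a in the shARVCF lines. The count was 3 of 8 higher, where 21% of all 14955 tested genes were higher, and 1 of 8 lower, where 21.7% were, together 42.8% of all genes. In the control line MDM2, MDM4 and PPM1D rose and RCHY1, USP7 and TRIM24 fell, 3 of 8 higher against 25.1% of all genes and 3 of 8 lower against 32%, together 57.1%. In bulk RNA a change in the share of cells that express a gene and a change in RNA per cell cannot be told apart. MDM2 had the largest log2 fold change of the 8 in both line types, and RFWD2 passed the test in neither. The median log2 fold change of the members was 0.14 in the shARVCF lines, where that of all genes was −0.00, and 0.11 in the control line, where that of all genes was −0.10. The first library series alone leaves 1 control library with nutlin-3a and 1 without. The control log2 fold changes were then 0.45 for MDM4 and −0.51 for RCHY1.

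**Figure D2:**
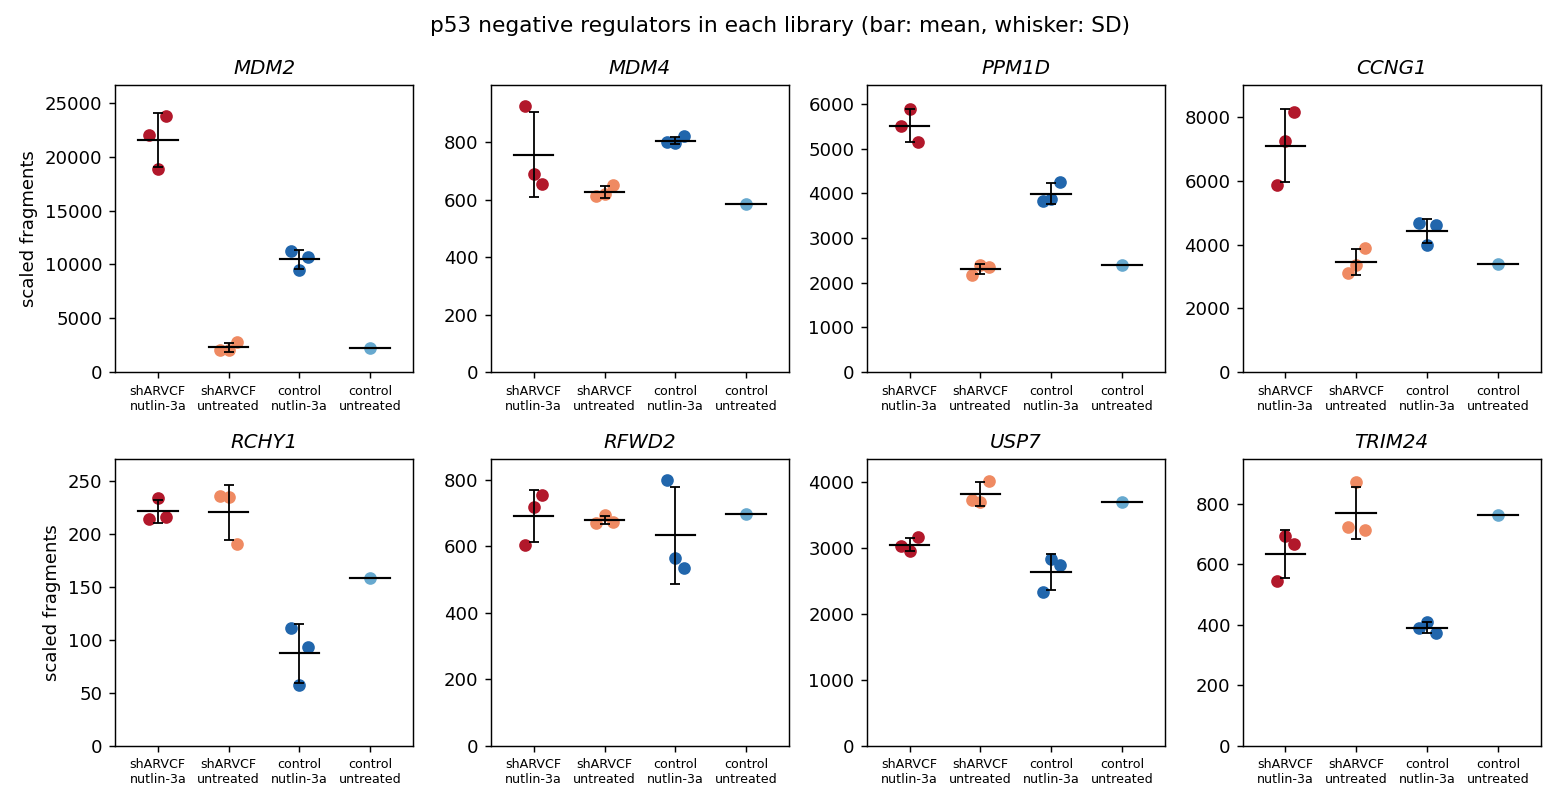
Scaled fragments of the p53 regulators in each of the 10 libraries, by group. Points are libraries, horizontal bars are means and whiskers are SDs, and the untreated control group is 1 library. MDM2 lies between 18852 and 23800 in nutlin-3a-treated shARVCF cells, between 9497 and 11199 in treated control cells and at or under 2787 in all 4 untreated libraries.

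MDM2 lies on chromosome 12 at 68808176 to 68850686 (GRCh38, + strand), and its longest annotated transcript has 11 exons. Its values were 21994, 18852 and 23800 scaled fragments in shARVCF lines 1, 2 and 3 under nutlin-3a and 2051, 2019 and 2787 in the same lines untreated. The control line had 11199, 9497 and 10732 with nutlin-3a and 2244 without. Every treated library stood above every untreated one, and every treated shARVCF library stood above every treated control library. The share of all genes whose libraries separate in this way was not counted, for MDM2 or for the members below. Within a line the rise was 10.7-fold, 9.33-fold and 8.54-fold in shARVCF lines 1, 2 and 3. The 3 treated control libraries were 4.99, 4.23 and 4.78 times the lone untreated control library. As log2 fold changes these were 3.25 (SE 0.13, adjusted p = 3.37e-09, limma) in the shARVCF lines and 2.22 (SE 0.19, adjusted p = 1.22e-06) in the control line, where the median of its length class was −0.83. MDM2 ranked 96th of 14955 genes by log2 fold change in the shARVCF lines and 451st in the control line.

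MDM4, on chromosome 1 at 204516379 to 204558120, responded far less. It had 926, 689 and 656 scaled fragments in shARVCF lines 1, 2 and 3 under nutlin-3a and 613, 619 and 650 in those lines untreated. Control cells had 799, 797 and 821 with nutlin-3a and 586 without. All treated libraries exceeded the untreated libraries of their own line type, but the treated shARVCF libraries ranged on both sides of the treated control libraries, with line 1 highest of all. The log2 fold change was 0.25 (SE 0.12, adjusted p = 0.118) in the shARVCF lines and 0.46 (SE 0.17, adjusted p = 0.0385) in the control line, where the median of its length class was −0.83. With the length and GC trend removed the control value was 1.57 (adjusted p = 1.47e-05) by the longest transcript and 1.72 (adjusted p = 4.74e-06) by the transcript of median length. The control call was lost when any 1 of the 3 treated control libraries was left out (adjusted p from 0.0567 to 0.0719), without line 2 of shARVCF untreated (adjusted p = 0.0504), with no filter on low values (adjusted p = 0.0547), with plain moderation (adjusted p = 0.0648), with library series as a term (adjusted p = 0.111) and in the first library series alone (0.45, adjusted p = 0.141). Without line 3 under nutlin-3a the shARVCF effect passed the test (0.35, adjusted p = 0.0496).

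MDM2 and its relative MDM4 were also compared as a ratio within each library. Per base of the longest transcript, MDM2 was 23.2 ± 5.15 times MDM4 in treated shARVCF cells and 2.90 ± 0.45 times in the same lines untreated. In the control line the ratio was 10.4 ± 0.84 (SD, n = 3) with nutlin-3a and 3.06 in the untreated library. The 3 treated shARVCF libraries, from 18.9 to 28.9, did not overlap the 3 treated control libraries, from 9.50 to 11.2. The log2 ratio differed by 1.14 between those groups (exact permutation test, two-sided, p = 0.1). That is the smallest p that 3 against 3 allows, and the control libraries come from 1 line. The test therefore cannot decide whether the groups differ. Both genes belong to the longest length class by their longest transcripts. By the transcripts of median length, MDM2 averaged 24185 and MDM4 80.5 scaled fragments per kilobase in treated shARVCF cells. The size of the ratio therefore depends on the transcripts assumed. Against CDKN1A, MDM2 stood at 0.131 ± 0.01 per base in treated shARVCF cells and 0.0594 ± 0.01 in treated control cells. The log2 ratio was higher by 1.16 in shARVCF cells (exact permutation test, two-sided, p = 0.1, n = 3 each), and that test has the same limits. CDKN1A, at 2267 bases, belongs to the second shortest class, whose median difference between shARVCF and control cells under nutlin-3a was −0.26, where that of the class of MDM2 was 0.83. The part of length in this ratio was not tested.

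PPM1D, on chromosome 17 at 60600183 to 60666280, was the second member to rise in both line types. The values were 5508, 5873 and 5138 scaled fragments in shARVCF lines 1, 2 and 3 under nutlin-3a and 2174, 2387 and 2351 in those lines untreated. In control cells the values were 3822, 3882 and 4259 with nutlin-3a and 2388 without. Treated and untreated libraries did not overlap in either line type, and the treated shARVCF libraries all lay above the treated control libraries. The log2 fold changes were 1.26 (SE 0.09, adjusted p = 2.3e-07) in the shARVCF lines and 0.74 (SE 0.12, adjusted p = 0.000285) in the control line, where the median of its length class was −0.46.

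CCNG1, on chromosome 5 at 163437569 to 163446151, rose in the shARVCF lines. It had 5881, 7247 and 8152 scaled fragments in lines 1, 2 and 3 under nutlin-3a and 3099, 3366 and 3894 in those lines untreated. The control line had 4682, 3976 and 4599 with nutlin-3a and 3392 without. The treated libraries lay above the untreated ones in both line types, and the second treated control library came closest to the untreated one. In the shARVCF lines the log2 fold change was 1.03 (SE 0.13, adjusted p = 3.71e-05), and line 1 had the smallest rise, 1.90-fold, where lines 2 and 3 had 2.15-fold and 2.09-fold. In the control line it was 0.38 (SE 0.18, 95% confidence interval −0.02 to 0.77, adjusted p = 0.0939), where the class median was 0.27, and with a block on line the same value passed the test (adjusted p = 0.0167).

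Of the other ubiquitin ligases, RCHY1 had the fewest scaled fragments of the members in every group, with a wide spread in the treated control libraries. On chromosome 4 at 75479037 to 75514764, it had 214, 234 and 216 scaled fragments in shARVCF lines 1, 2 and 3 under nutlin-3a and 236, 235 and 191 in those lines untreated. In control cells it had 111, 57.1 and 93.6 with nutlin-3a and 159 without. The shARVCF groups overlapped (log2 fold change 0.01, SE 0.22, 95% confidence interval −0.46 to 0.49, adjusted p = 0.972). In the control line RCHY1 fell by 0.91 (SE 0.31, adjusted p = 0.0238), where the median of its length class was −0.46. The lowest of the treated control libraries belongs to the second library series, and from the first series alone the value was −0.51 (adjusted p = 0.106).

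TRIM24, on chromosome 7 at 138460334 to 138589993, is also a reader of histone marks. It had 545, 693 and 667 scaled fragments in shARVCF lines 1, 2 and 3 under nutlin-3a and 725, 871 and 715 in those lines untreated. The control line had 389, 410 and 373 with nutlin-3a and 763 without. The treated libraries lay below the untreated ones in both line types. TRIM24 fell by 0.97 on the log2 scale in the control line (SE 0.17, adjusted p = 0.000404), where the median of its length class was −0.83. In the shARVCF lines the value was −0.28 (SE 0.12, adjusted p = 0.0812), and with the block on line it passed the test (adjusted p = 0.0334).

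RFWD2, on chromosome 1 at 175944831 to 176207493, gave no detectable response at this spread. It had 603, 718 and 755 scaled fragments in shARVCF lines 1, 2 and 3 under nutlin-3a and 669, 694 and 674 in those lines untreated. In control cells RFWD2 had 800, 566 and 534 with nutlin-3a and 699 without. Treated and untreated libraries overlapped in both line types, and the first treated control library stood above the untreated one while the other 2 stood below it. The log2 fold change in the control line was −0.17 from all libraries and 0.19 from the first library series alone. The 95% confidence interval of the log2 fold change ran from −0.30 to 0.34 in the shARVCF lines (adjusted p = 0.926) and from −0.61 to 0.28 in the control line (adjusted p = 0.513, class median −0.09).

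USP7, on chromosome 16 at 8892094 to 8964514, was the only member called lower in both line types. It had 3036, 2963 and 3166 scaled fragments in shARVCF lines 1, 2 and 3 under nutlin-3a and 3737, 3696 and 4027 in those lines untreated. The control line had 2335, 2839 and 2750 with nutlin-3a and 3694 without. Treated and untreated libraries did not overlap, and within each shARVCF line the treated value was 0.812, 0.802 and 0.786 of the untreated one. USP7 fell by 0.32 in the shARVCF lines (SE 0.09, adjusted p = 0.0142) and by 0.49 in the control line (SE 0.13, adjusted p = 0.00673) on the log2 scale, the class median in the control line being −0.46. The shARVCF call was lost without line 2 under nutlin-3a (adjusted p = 0.0526) or without line 3 untreated (adjusted p = 0.0524). With the length and GC trend removed the shARVCF value was −0.25 (adjusted p = 0.0532), and the control value turned to 0.27 (adjusted p = 0.125).

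**Figure D3:**
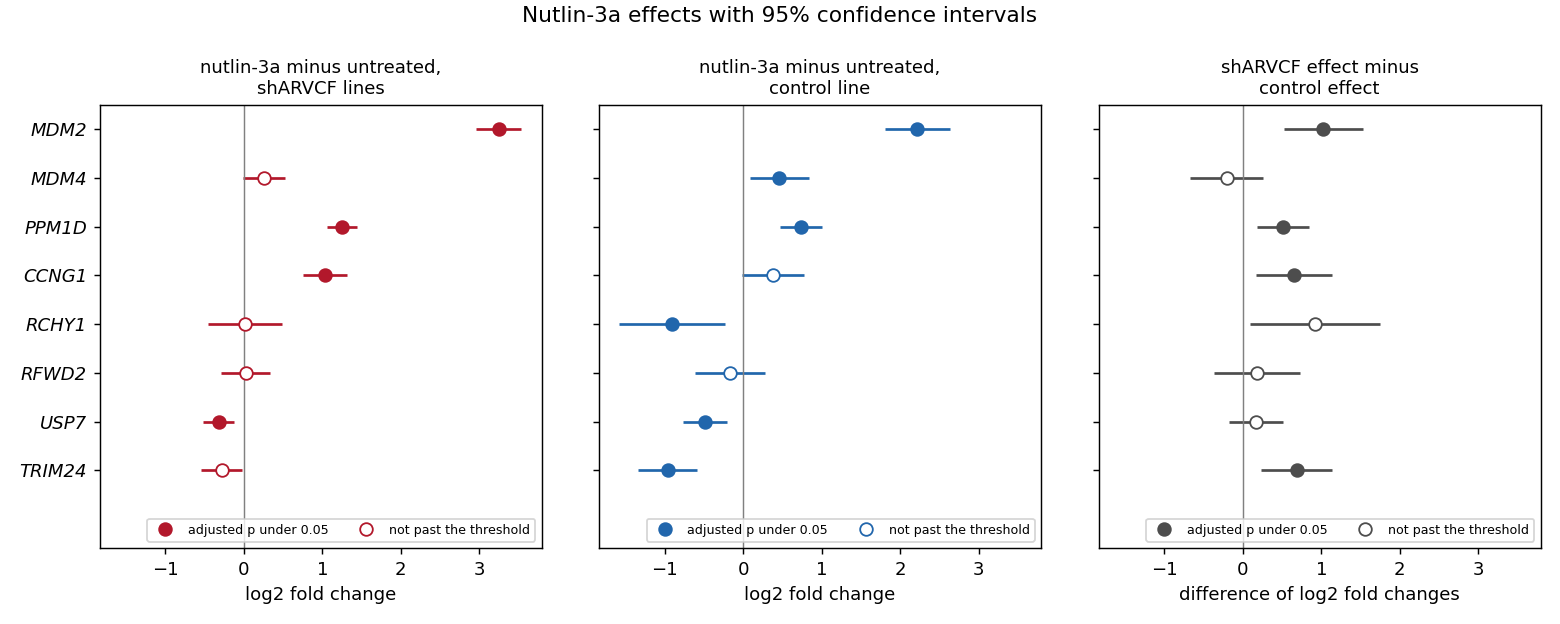
Log2 fold changes of nutlin-3a-treated over untreated cells in the shARVCF lines (left) and the control line (middle), and the shARVCF effect minus the control effect (right). Points are estimates from the fit across all genes and lines are 95% confidence intervals. Filled points passed an adjusted p of 0.05, which are MDM2, PPM1D, CCNG1 and TRIM24 in the right-hand panel.

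Without drug none of the members was called between shARVCF and control cells, where 0.0201% of all genes were called, 3 genes in all. At an unadjusted p under 0.05 the count among the members was also 0, and the smallest unadjusted p was 0.158, for RCHY1. The comparison rests on the lone untreated control library, whose spread was taken to equal that of the replicated groups. Its intervals are wide. For MDM2 the log2 difference was 0.01 with a 95% confidence interval of −0.40 to 0.42, for MDM4 0.10 with an interval of −0.28 to 0.48, for PPM1D −0.05 with −0.32 to 0.22, and for RCHY1 0.47 with −0.21 to 1.14. The other 4 values lay between −0.04 and 0.05.

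Under nutlin-3a, 5 of the 8 members were higher in shARVCF than in control cells, where 32.3% of all genes were higher, and 0 were lower, where 26.1% were, together 58.4%. The 5 were MDM2 (log2 difference 1.04, SE 0.13, adjusted p = 3.19e-05), PPM1D (0.46, SE 0.09, adjusted p = 0.000631), CCNG1 (0.67, SE 0.13, adjusted p = 0.00067), RCHY1 (1.39, SE 0.22, adjusted p = 0.000157) and TRIM24 (0.69, SE 0.12, adjusted p = 0.000337). All 3 treated shARVCF libraries lay above all 3 treated control libraries for these genes and for USP7. The share of all genes separated in this way was not counted. For USP7 the difference of 0.21 did not pass the test (adjusted p = 0.0638). That difference passed the test at 0.27 without the second treated control library (adjusted p = 0.042). MDM4 gave −0.11 (95% confidence interval −0.38 to 0.16, adjusted p = 0.477), and −0.26 without line 1 of shARVCF (adjusted p = 0.046). RFWD2 gave 0.15 (adjusted p = 0.414), and passed the test at 0.33 when the first treated control library was left out (adjusted p = 0.0315). Of all 8 members 6 gave an unadjusted p under 0.05. From the first library series alone the 5 genes stayed past the threshold, with MDM2 at 0.94 (adjusted p = 0.0065), and USP7 joined them at 0.39 (adjusted p = 0.0164).

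The members did not all follow the median of their length class in this comparison. The class median was 0.83 for MDM2, MDM4 and TRIM24, which themselves stood at 1.04, −0.11 and 0.69. It was 0.40 for RCHY1, PPM1D and USP7, which stood at 1.39, 0.46 and 0.21. It was −0.26 for CCNG1, which stood at 0.67. With the length and GC trend of the longest transcript removed, CCNG1 stayed higher in shARVCF cells (0.37, adjusted p = 0.0248), as did RCHY1 (0.57, adjusted p = 0.0304). MDM4 became lower (−1.21, adjusted p = 1.29e-05), as did USP7 (−0.48, adjusted p = 0.00216) and TRIM24 (−0.34, adjusted p = 0.032). MDM2 then gave −0.16 (adjusted p = 0.378) and PPM1D −0.16 (adjusted p = 0.151).

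The result for MDM2 turned on the transcript assumed. The annotation lists 15 basic transcripts of MDM2, the median of which is 891 bases long, and the deposited values do not say which was measured. When the trend was removed with the transcript of median length instead, MDM2 was higher in shARVCF cells under nutlin-3a by 0.94 (adjusted p = 0.000202) and PPM1D by 0.85. CCNG1 (0.64) and RCHY1 (1.34) were then higher and MDM4 (−1.35) and USP7 (−0.49) lower, the same directions as with the longest transcript, while TRIM24 stood at 0.00. The choice of the median-length transcript was made after the data had been seen.

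The nutlin-3a effects themselves differed between the line types for 4 members, all in the direction of a larger value in the shARVCF lines, where 19.3% of all genes had a higher and 12.5% a lower effect there, together 31.8%. For MDM2 the shARVCF effect exceeded the control effect by 1.03 (SE 0.23, 95% confidence interval 0.52 to 1.53, adjusted p = 0.00542). For PPM1D the difference was 0.52 (SE 0.15, adjusted p = 0.0214), for CCNG1 0.65 (SE 0.22, adjusted p = 0.0411) and for TRIM24 0.69 (SE 0.21, adjusted p = 0.0252). TRIM24 had fallen in the control line and had not passed the test in the shARVCF lines. RCHY1 gave 0.92 with an interval of 0.10 to 1.74 (adjusted p = 0.083), and 1.12 without the first treated control library (adjusted p = 0.0308), and MDM4 gave −0.21 with an interval of −0.67 to 0.26 (adjusted p = 0.501). CDKN1A gave 0.12 (SE 0.30, adjusted p = 0.802).

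Several of these calls changed when libraries were left out or the length trend was removed. In the first library series alone, with 1 control library on each side, MDM2 (0.93, adjusted p = 0.0466) and PPM1D (0.58, adjusted p = 0.0328) remained past the threshold, while CCNG1 (0.57, adjusted p = 0.161) and TRIM24 (0.69, adjusted p = 0.0757) did not. Without line 2 under nutlin-3a MDM2 was the only member called, where 27.9% of all genes were. With the length and GC trend of the longest transcript removed, MDM2 gave −0.13 (adjusted p = 0.78), PPM1D −0.094 (adjusted p = 0.741), CCNG1 0.45 (adjusted p = 0.174) and TRIM24 −0.32 (adjusted p = 0.335). MDM4 was then the only member called, at −1.28 (adjusted p = 0.00227), where 13.5% of all genes were. Its nutlin-3a effect was 1.57 (adjusted p = 1.47e-05) in the control line and 0.28 (adjusted p = 0.0745) in the shARVCF lines. With the transcript of median length MDM2 (1.03, adjusted p = 0.0129), PPM1D (0.87, adjusted p = 0.00307) and CCNG1 (0.69, adjusted p = 0.0282) were called, TRIM24 was not (0.01, adjusted p = 0.976), and MDM4 gave −1.43 (adjusted p = 0.000856).

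**Figure D4:**
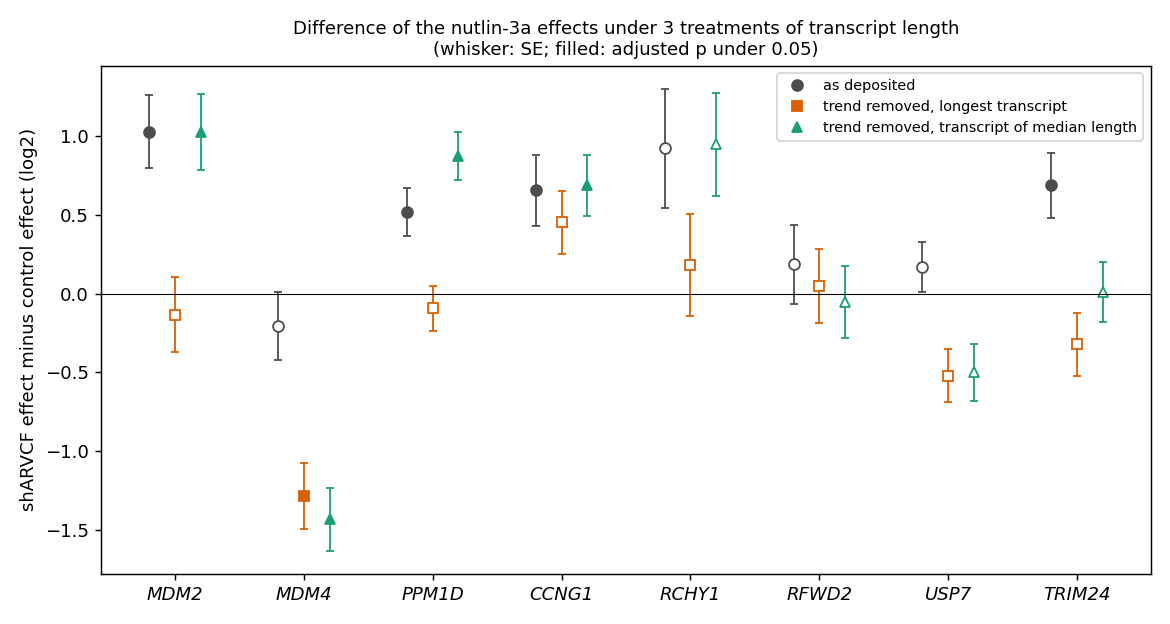
Difference of the nutlin-3a effects, shARVCF minus control, on the log2 scale for the p53 regulators as deposited, with the length and GC trend of the longest transcript removed, and with that of the transcript of median length removed. Whiskers are SEs and filled symbols passed an adjusted p of 0.05. MDM2 stands at 1.03, −0.13 and 1.03 under the 3 treatments, and MDM4 at −0.21, −1.28 and −1.43.

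The nutlin-3a rise of MDM2 and PPM1D was called in both line types under every setting run, the smallest value being 0.34 for PPM1D in the control line (adjusted p = 0.04) with the trend of the median-length transcript removed. Without the trend of the longest transcript MDM2 rose by 3.23 in the shARVCF lines and by 3.36 in the control line, and PPM1D by 1.35 and 1.44 on the log2 scale. CCNG1 rose by 1.27 (adjusted p = 2.95e-06) in the shARVCF lines and by 0.82 (adjusted p = 0.00145) in the control line. The falls of RCHY1 and TRIM24 in the control line were no longer called, at 0.085 (adjusted p = 0.811) and 0.11 (adjusted p = 0.59). By the transcript of median length RCHY1 was still called there, at −0.84 (adjusted p = 0.0194), and TRIM24 stood at −0.17 (adjusted p = 0.376).

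Between members, levels per kilobase of the longest transcript were ordered as follows. In treated shARVCF cells CCNG1 stood first at 2886, then MDM2 at 1706, PPM1D at 1152, USP7 at 565 and RFWD2 at 228 scaled fragments per kilobase, with no overlap of the libraries between neighbours. TRIM24 at 75.5 and MDM4 at 75.1 overlapped, and RCHY1 was last at 47.3. In treated control cells CCNG1 stood at 1798, while PPM1D at 835 and MDM2 at 829 overlapped. In the untreated shARVCF lines MDM2, at 181, stood below CCNG1 (1405), USP7 (706), PPM1D (482) and RFWD2 (224). With the transcript of median length MDM2 came first in treated shARVCF cells, at 24185 per kilobase, so its place among the members depends on which transcript is assumed.

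Among the other genes of the pathway, the 24 tested members of a list of 25 other direct p53 targets were all higher with nutlin-3a in the shARVCF lines, and 23 of 24 in the control line. Of all genes 21% were higher in the shARVCF lines and 25.1% in the control line. The list was chosen with earlier results of these data known. The median log2 fold change of the list was 2.19 in the shARVCF lines and 2.03 in the control line, where the medians of all tested genes were −0.00 and −0.10. TP53I3, an oxidoreductase gene, rose by 2.82 and 3.72, and FDXR, ferredoxin reductase, by 2.67 and 3.49 in the shARVCF and control lines. Under nutlin-3a the list was divided, with 5 higher and 7 lower in shARVCF than in control cells. Of all genes 32.3% were higher and 26.1% lower in that comparison. TP53INP1, whose product activates p53 through a kinase, was higher by 0.97 (adjusted p = 5.53e-06) and the apoptosis gene BAX lower by 0.86 on the log2 scale (adjusted p = 1.53e-05). The values given for TP53I3, FDXR and BAX are as deposited, without removal of the length and GC trend. After removal of the trend the split was 1 higher and 4 lower, and TP53INP1 gave 0.09 (adjusted p = 0.57). With the trend removed 38.9% of all genes were called in that comparison, 40.7% of these higher.

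Of 16 tested members of 17 in the list of the p53 family and its cofactors, 2 rose and 9 fell in the shARVCF lines, where 21% of all genes rose and 21.7% fell. In the control line 2 rose and 11 fell, where 25.1% and 32% of all genes did. The median log2 fold changes were −0.28 and −0.77. After removal of the length and GC trend 3 rose and 7 fell in the shARVCF lines and 2 rose and 7 fell in the control line. TP73, a p53 relative, fell, with a log2 fold change of −3.24 in the shARVCF lines (adjusted p = 5.1e-07) and −3.87 in the control line (adjusted p = 1.99e-06). SETD8, a histone methyltransferase that also methylates p53, fell by 1.07 in the shARVCF lines. Under nutlin-3a 8 of the list were higher and 4 lower in shARVCF cells, and 6 higher and 4 lower with the trend removed. Of all genes 32.3% were higher and 26.1% lower, and 38.9% were called with the trend removed, 40.7% of these higher. The acetyltransferase genes CREBBP (1.39) and EP300 (1.62) were higher, by 0.78 and 0.88 with the length and GC trend removed.

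Other ubiquitin ligases of p53 gave 5 higher and 4 lower of 21 tested in the shARVCF lines and 2 higher and 10 lower in the control line, with medians of −0.03 and −0.46. Of all genes 21% were higher and 21.7% lower in the shARVCF lines, and 25.1% higher and 32% lower in the control line. After removal of the trend the control line had 6 higher and 5 lower and a median of 0.17, and the shARVCF lines had 7 and 4. FBXO22, which targets methylated p53, rose by 1.45 (adjusted p = 1.14e-07) in the shARVCF lines and by 1.65 (adjusted p = 7.44e-07) in the control line. STUB1, also called CHIP, rose by 1.13 in the control line (adjusted p = 9.32e-06) and was lower in shARVCF than in control cells under nutlin-3a, by 1.08 on the log2 scale. Without the length and GC trend that difference was −0.22 (adjusted p = 0.0511), and the list's 14 higher and 2 lower calls under nutlin-3a became 3 higher and 5 lower. The shares of all genes there were 32.3% higher and 26.1% lower, and 38.9% called without the trend, 40.7% of these higher.

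Deubiquitinases of p53, MDM2 and MDM4 other than USP7 gave 2 higher and 4 lower of 14 in the shARVCF lines and 2 higher and 8 lower in the control line, with medians of −0.09 and −0.47, where 21% of all genes were higher and 21.7% lower in the shARVCF lines, and 25.1% higher and 32% lower in the control line. Without the trend the control line had 5 higher and 5 lower and a median of 0.04, and the shARVCF lines had 2 and 3. GMPS, a partner of USP7, fell by 0.90 in the shARVCF lines (adjusted p = 3.2e-05). OTUB1, which blocks ubiquitination of p53, was lower in shARVCF than in control cells under nutlin-3a by 0.86 on the log2 scale, and by 0.33 with the length and GC trend removed (adjusted p = 0.00495). Under nutlin-3a 7 of the list were higher and 3 lower in shARVCF cells, and 3 and 6 with the trend removed. Of all genes 32.3% were higher and 26.1% lower, and 38.9% were called with the trend removed, 40.7% of these higher.

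Inhibitors and partners of MDM2 and MDM4 included the ribosomal proteins that bind MDM2 and inhibit it. Of 19 tested members of 21, 2 rose and 6 fell in the shARVCF lines, while 9 rose and 6 fell in the control line, with medians of −0.00 and 0.18. Of all genes 21% rose and 21.7% fell in the shARVCF lines and 25.1% rose and 32% fell in the control line, with medians of −0.00 and −0.10. Without the trend 5 of the list rose and 8 fell in the shARVCF lines and 9 rose and 4 fell in the control line. RPL11 and RPL23 rose in the control line, by 1.32 (adjusted p = 1.21e-05) and 1.23 (adjusted p = 3.52e-06). Under nutlin-3a 4 of the list were higher and 11 lower in shARVCF than in control cells, with RPL11 lower by 1.08 and RPL23 lower by 1.05 on the log2 scale. After removal of the trend 1 was higher and 11 lower, with RPL11 at −0.76 and RPL23 at −1.30. In this comparison 32.3% of all genes were higher and 26.1% lower. With the trend removed 38.9% were called, 40.7% of these higher. Ribosomal protein genes have many near-identical processed pseudogenes, so their values are uncertain where reads were split between copies. MTBP, an MDM2-binding protein, fell, with log2 fold changes of −3.02 in the shARVCF lines and −4.24 in the control line. RPS27L, itself a p53 target that binds MDM2, rose by 1.46 in the shARVCF lines (adjusted p = 8.28e-06). CDKN2A, whose ARF product inhibits MDM2, was listed at 0 in all 10 libraries, and DAXX and TRIM39 of these lists were also at or near 0.

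Of 22 kinases and phosphatases of p53 and MDM2, 3 rose and 12 fell in the shARVCF lines, where 21% of all genes rose and 21.7% fell. In the control line 2 rose and 16 fell, where 25.1% and 32% of all genes did, and the medians were −0.32 and −0.62. Without the trend 3 rose and 10 fell in the shARVCF lines and 4 rose and 10 fell in the control line. PLK1, a mitotic kinase, fell, with log2 fold changes of −5.20 in the shARVCF lines and −5.71 in the control line, and the checkpoint kinase gene CHEK1 fell by 2.62 in the shARVCF lines (adjusted p = 1.64e-07). HIPK2, a kinase that phosphorylates p53, averaged 2340 in treated shARVCF cells, 1847 in the same lines untreated, 440 in treated control cells and 2113 in the untreated control library. Its log2 fold change of −2.27 in the control line was called (adjusted p = 7.36e-08), and under nutlin-3a it was higher in shARVCF cells by 2.41 (adjusted p = 6.17e-09). After removal of the trend that difference was 1.39 (adjusted p = 4.45e-07). ATM, the DNA damage kinase, was higher by 2.02 in shARVCF cells under nutlin-3a, and by 0.74 with the trend removed. Under nutlin-3a 9 of the list were higher and 3 lower in shARVCF cells, and 4 higher and 5 lower with the trend removed. Of all genes 32.3% were higher and 26.1% lower, and 38.9% were called with the trend removed, 40.7% of these higher.

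Close relatives of the members, such as other PPM1 phosphatases and TRIM ligases, gave 1 higher and 2 lower of 12 in the shARVCF lines. In the control line 0 were higher and 6 lower, and the medians were −0.02 and −0.45. Of all genes 21% were higher and 21.7% lower in the shARVCF lines, and 25.1% higher and 32% lower in the control line. In that line 6 of the 12 were higher and 2 lower after removal of the trend with length and GC. PPM1A rose by 0.47 in the shARVCF lines (adjusted p = 0.000479), where PPM1D rose by 1.26, while PPM1B fell by 0.57 and PPM1G by 0.60. TRIM33, the relative of TRIM24, fell by 1.55 in the control line, and by 0.35 with the trend removed (adjusted p = 0.0553). The adaptors and substrates of RFWD2 gave 4 higher and 4 lower of 12 in the shARVCF lines (21% and 21.7% of all genes). In the control line 4 were higher and 5 lower (25.1% and 32% of all genes), and the medians were −0.30 and 0.10. The adaptor gene TRIB1 rose in both, by 0.53 and 0.96, while TRIB2 fell by 1.08 in the shARVCF lines and by 1.79 in the control line. Without drug limma called 0 members of these 8 lists. At an unadjusted p under 0.05 there was 1 RFWD2 adaptor or substrate, 1 other p53 target and 0 in the other 6 lists.

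Some members overlap a neighbour on the other strand. The overlaps are of whole gene spans, introns included, and the transcript sequence shared was not measured. CPM overlaps 8490 bases of MDM2, and it fell with nutlin-3a where MDM2 rose, by 1.17 in the shARVCF lines (adjusted p = 0.00534) and by 1.75 in the control line (adjusted p = 0.00251). Its values were 39.9 to 61.2 in treated shARVCF cells and 79.0 to 162 in the same lines untreated. THAP6 overlaps 819 bases of RCHY1 and was not called in any comparison, with a log2 difference of 0.14 between shARVCF and control cells under nutlin-3a where RCHY1 had 1.39. The library kit keeps strand, but the sources used here do not say whether the counting used it.

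The genes whose log2 values most resembled those of each member across the 10 libraries were named by Pearson correlation among 11453 protein-coding genes, as a description over libraries that share lines and treatments. For MDM2 they were PTP4A1 (r = 0.997), KLLN (0.995) and ZMAT3 (0.994). For PPM1D they were RRM2B (0.995), DOCK8 (0.993) and TP53INP1 (0.991), and for CCNG1 they were CLIP4 (0.990), ANOS1 (0.986) and BMP2 (0.976). MDM2 and PPM1D had an r of 0.982 with each other. For MDM4 the nearest were NISCH (0.961), MAPK8IP3 (0.951) and ZNF276 (0.945), for USP7 UBAP2 (0.991), CPSF7 (0.988) and TACC2 (0.981). For RCHY1 they were DNAJB14 (0.988), TMED7 (0.982) and TMEM106B (0.979), and for TRIM24 ATF7IP (0.984), TRIM14 (0.982) and VPS35 (0.982).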

How the data were processed

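Poly(A) RNA of 10 U2OS libraries was sequenced after stranded library preparation. Per the submitters' processing notes, bcl2fastq 1.8.3, HISAT2 2.1.0, Cuffnorm 2.2.1 and hg38 were used. The sources used here do not name the annotation behind the symbols. The authors deposited 1 signal per gene and library, an estimated number of fragments scaled between libraries, to judge from their near-equal totals. The values are not whole and were not treated as counts.

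The 4 groups were set by shRNA and treatment, and 5 comparisons were made. log2(value + 1) was fitted with limma 3.58.1 in R 4.3.3, with 4 group means, 6 residual degrees of freedom, a variance trend and robust weights. Genes with at least 10 in at least 3 libraries were tested, 14955 in all. Tests were two-sided, with Benjamini-Hochberg adjustment over all tested genes and calls at 0.05. Fold changes include the pseudocount of 1. The script was tested on simulated data. Symbols matched GENCODE 29 by name (24016), by an older name (688) or not at all (1336). For the length and GC correction, splines with 4 degrees of freedom were removed from each library over 14723 genes. Positions are those of the whole annotated gene. Exons and lengths are those of the longest basic transcript, which need not be the mRNA measured.

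Same-numbered shARVCF libraries are the same line. Their deviations from the group means correlated across genes at 0.275, 0.288 and 0.327, against −0.204 to −0.086 for libraries of different lines, so a fit with line as a block was also made for the nutlin-3a effects. No 2 libraries held identical values.

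The members and the 10 gene lists were chosen with earlier results of these data known. Named were the members, ARVCF, CDKN1A, overlapping genes, up to 3 genes per list and comparison with the smallest adjusted p, any gene alone against its list, and for each called member the 3 genes most correlated with it (mean of at least 50). Alternatives were pseudocounts of 0.1 and 10, no filter, 3 other scalings, plain moderation, the correction above, each library left out, the first library series alone, series as a term and the block on line.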

Additional observations from a re-analysis of the deposited data

Results flagged for a closer look

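The difference between the nutlin-3a effects of the shARVCF lines and of the control line, tested in the fit itself, passed the threshold for 4 of the 8 members. Of all genes 31.8% passed it, 19.3% with a higher and 12.5% with a lower shARVCF effect. The shARVCF effect was larger by 1.03 for MDM2, by 0.518 for PPM1D and by 0.654 for CCNG1 on the log2 scale, and for TRIM24, which had fallen in the control line, it was higher by 0.686. The medians of the length classes of these genes differed in the same direction for MDM2 and TRIM24 (0.83) and PPM1D (0.42), and in the opposite direction for CCNG1 (−0.25). The groups hold at most 3 libraries, so no search for single outlying libraries was made.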

How the results depend on the processing

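The lone untreated control library, the single control line and scaled values of unknown depth limit every comparison with the control line. With the length and GC trend of the longest transcript removed, directions turned for members called before or after: in the control line to 0.085 for RCHY1, 0.27 for USP7 and 0.11 for TRIM24; under nutlin-3a to −0.16 for MDM2, −0.16 for PPM1D, −0.48 for USP7 and −0.34 for TRIM24; and in the difference of effects to −0.13 for MDM2, −0.094 for PPM1D and −0.32 for TRIM24. Genes called under nutlin-3a fell in number to 5726 and genes with different effects to 1989, and 1 member was then called there. With the transcript of median length, chosen after the data had been seen, USP7 turned to 0.33 in the control line and to −0.49 under nutlin-3a, while RCHY1 (−0.84) and TRIM24 (−0.17) kept their direction in the control line, and 2591 genes had different effects. The cause was not tested. Members with different effects numbered 2 with upper-quartile scaling, where 33.7% of all genes were called, and 2 with series as a term, where 27.5% were. CCNG1 lost that call under 8 of the other settings and 6 of the 9 that leave out a library (lines 1 and 2 of shARVCF untreated, lines 2 and 3 with nutlin-3a, treated control libraries 2 and 3; adjusted p up to 0.174). Without drug the 3 genes called became 8 with a pseudocount of 0.1, 5 with plain moderation and 0 with a pseudocount of 10, either trend removed or the first series alone. Upper-quartile scaling moved the median of all genes in the control line from −0.10 to 0.07 and the share of higher calls in the difference of effects from 60.8% to 49.5%.

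Leaving out 1 library gave 5323 to 6603 called genes for nutlin-3a in the shARVCF lines, 8163 to 8568 in the control line, 7833 to 8725 between shARVCF and control cells under nutlin-3a, 1 to 4 without drug and 4153 to 4830 for the difference of effects. Called members ranged from 3 to 5, 5 to 6, 5 to 6, 0 to 0 and 1 to 5 for these comparisons, and the lowest of the last, 1, came without line 2 of shARVCF under nutlin-3a.

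With the replicate block on line, 7157 genes were called in the shARVCF lines, 9239 in the control line and 5764 for the difference of effects; among the members it added TRIM24 in the shARVCF lines and CCNG1 in the control line and changed no other call.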
